A study of Mus musculus with 8 samples.

Results

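The 10 genes described here are neuronal genes that C2C12 mouse myoblasts express: the neurofilaments Nefl and Nefm, the stathmins Stmn2 and Stmn4, the growth cone genes Gap43 and Crmp1, the receptors Ngfr and Lrrn1, the polysialyltransferase St8sia2, and its substrate Ncam1. They were picked by symbol from the 24573 genes of the count table, and all 10 were found. Values in these libraries guided the choice, so the levels and differences of the 10 genes are a description and carry no p-value. C2C12 cells are a line of muscle precursors, here infected with a lentivirus that expresses an shRNA (short hairpin RNA), selected in puromycin at 2 µg/ml and then held at 1 µg/ml. All 8 sample titles carry the tag prol, read here as proliferating cells. RNA was sequenced from 8 libraries, 2 each for an shRNA against Baf250A, an shRNA against Brd9, an shRNA against Baf180 and a scrambled control. Baf250A (gene Arid1a), Brd9 and Baf180 (gene Pbrm1) are subunits of 3 forms of the SWI/SNF family of ATP-driven chromatin remodellers: canonical BAF, non-canonical BAF and PBAF.

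As background, neurofilaments are the intermediate filaments of axons, and stathmins bind tubulin and regulate the growth and shrinkage of microtubules. Growth cones, the motile tips of extending axons, are rich in the membrane protein encoded by Gap43 and use CRMP proteins to pass guidance signals to the cytoskeleton. NCAM, a cell adhesion molecule of neurons and of myoblasts, can carry long chains of polysialic acid, which weaken adhesion. Outside neurons many such genes are kept low by the repressor REST, which works with corepressor proteins. Some are nevertheless transcribed in muscle precursors and regenerating fibres.

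Library totals ran from 17763062 to 20400855 estimated counts. The sample titles carry 1 hairpin identifier per target, so an off-target effect of a hairpin and loss of its target cannot be told apart, and the labels do not say whether libraries of 1 group are separate cultures. P-values therefore measure the spread between libraries, which may be technical. The targeted genes were lower in their own libraries: Arid1a had 1335 and 1243 counts in Baf250A and 2834 and 2720 in scramble libraries, Brd9 157 and 135 in Brd9 and 717 and 637 in scramble, and Pbrm1 65 and 86 in Baf180 and 876 and 969 in scramble. Arid1a RNA thus stayed at 41.5% of its scramble level, against 19.0% for Brd9 and 8.04% for Pbrm1, in CPM (counts scaled to a common library size). Pbrm1 was also higher in Baf250A libraries, at 1483 and 2325 counts, than in scramble. Its log2 fold change there was 0.89 (SE 0.23, adjusted p = 0.0211 in edgeR), and 0.17 with offsets for GC content and gene length. Scramble replicate 2 had 16402 genes with a count and the other libraries 14195 to 14768. Cell markers bore out the label. Of 8 myoblast markers all had counts in every library. Of 9 neuron markers Snap25 had 0 counts in every library and Rbfox3, Elavl3 and Elavl4 at most 1, while the tubulin Tubb3 and the synapsin Syn1 were well expressed. The 9 Schwann cell and neural crest markers summed to 15.5 to 19.9 CPM in Baf250A libraries, 10.2 to 12.6 in Brd9, 23.7 to 28.5 in Baf180, and 10.1 to 11.7 in scramble libraries. Most of this was Egr2, which was higher in Baf180 (log2 fold change 1.61, SE 0.23, adjusted p = 0.00150) and Baf250A knockdown (0.99, SE 0.23, adjusted p = 0.0128, a call that ended without scramble replicate 2 or Baf250A replicate 2, adjusted p up to 0.0986), while Sox10 reached at most 2 counts. The 7 astrocyte and oligodendrocyte markers summed to at most 3.77 CPM, with the highest sums in Baf180 libraries (1.91 to 3.77, against 0.73 to 1.91 in scramble) and Olig2 at 0 counts. Their part in the differences was not tested. In bulk RNA, fewer cells that express a gene and less RNA per cell cannot be told apart.

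In scramble myoblasts these genes were not at trace levels. Scaled by gene length as TPM (a length-corrected share of all transcripts), Nefl averaged 235 ± 14.5 (SD, n = 2), Stmn2 132 ± 5.72, Nefm 78.9 ± 6.79, Stmn4 58.3 ± 6.42 and Gap43 51.1 ± 5.76. Ncam1 followed at 33.2 ± 1.01 TPM, Ngfr at 16.0 ± 0.275, Lrrn1 at 9.20 ± 1.31, Crmp1 at 5.77 ± 0.437 and St8sia2 at 4.38 ± 1.06. Summed, the 10 genes came to 82.1 and 90.1 TPM in Baf250A libraries, 352 and 316 in Brd9, 119 and 156 in Baf180, and 654 and 593 in scramble libraries. The knockdown groups did not overlap with each other or with scramble in this sum. The make-up changed as well as the sum. Nefl led in scramble cells, Stmn2 led in Brd9 and Baf180 cells, at 127 ± 6.08 and 81.6 ± 21.5 TPM, and Ncam1 led in Baf250A cells, at 37.4 ± 3.03 TPM.

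**Figure D1:**
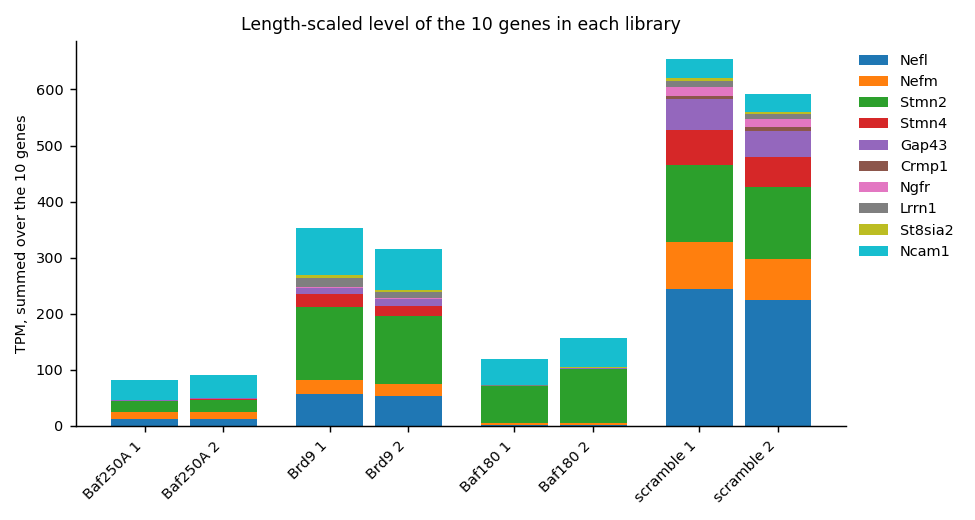
Stacked bars give the TPM of each of the 10 genes in each of the 8 libraries, with the 2 libraries of a group side by side. The bars reach 82.1 and 90.1 TPM for Baf250A, 352 and 316 for Brd9, 119 and 156 for Baf180, and 654 and 593 for scramble.

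Set against scramble, the genes were lower to very different degrees in the 3 knockdowns, and the order of the knockdowns changed from gene to gene. The comparisons use the same scramble libraries and are not independent of each other. In Baf250A knockdown 9 of the 10 genes were called lower (adjusted p below 0.05 over 12420 genes in edgeR) and Ncam1 was not, where 14.0% of all genes were called lower. The median log2 fold change of the 10 was −4.70, against −0.02 over all genes. For Brd9 knockdown the count was 6 lower and 1 higher, beside 3.57% of all genes lower and 6.45% higher, with a median of −1.96 against 0.04. In Baf180 knockdown 9 were lower and 1 higher, beside 17.0% lower and 17.2% higher, with a median of −5.54 against −0.02. All 10 genes passed the filter on low counts. They had counts enough to pass in at least the groups where they were high, and these counts describe how they were chosen.

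**Figure D2:**
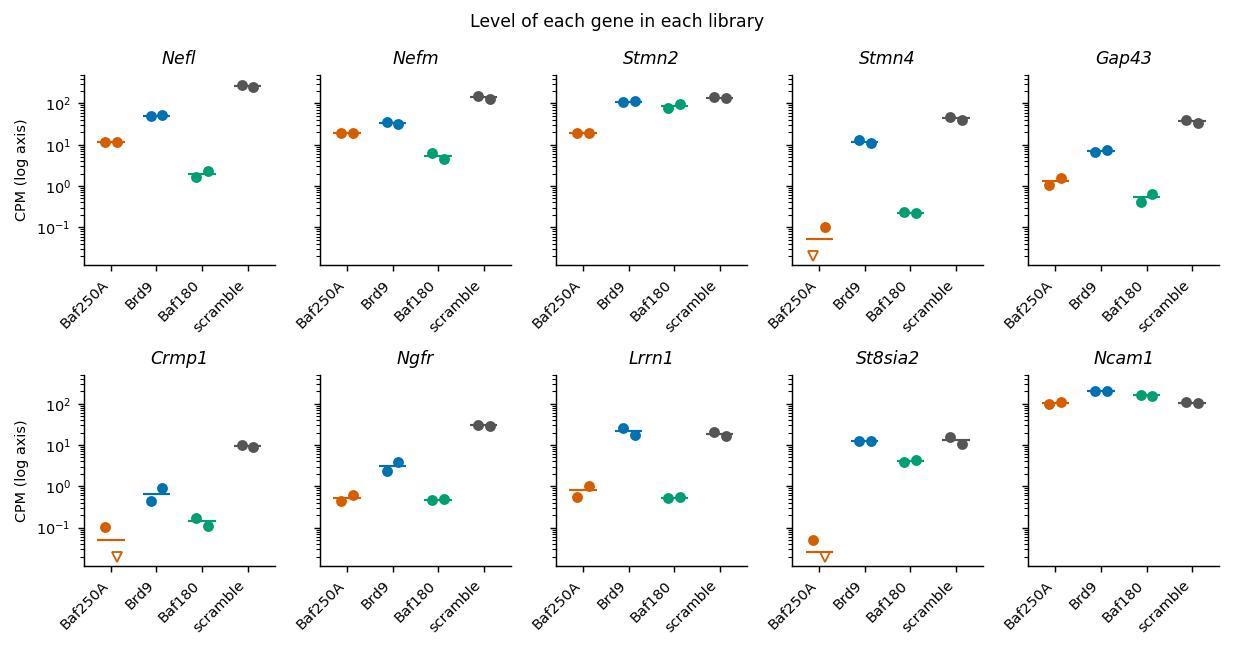
Each panel shows 1 gene, with its CPM on a log axis for both libraries of each group as points and their mean as a line. Open triangles at the bottom mark libraries with 0 counts. Scramble levels run from 9.42 CPM for Crmp1 to 260 CPM for Nefl, and Ncam1 stays near or above 100 CPM in all groups.

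The neurofilament genes were lowest in Baf180 knockdown. Nefl, the light chain that other neurofilament chains assemble with, had 234 and 223 counts in Baf250A libraries, 1005 and 1000 in Brd9, 28 and 43 in Baf180, and 4863 and 4264 in scramble libraries. No groups overlapped. Against scramble its log2 fold change was −4.48 (SE 0.17) in Baf250A, −2.36 (SE 0.15) in Brd9 and −7.02 (SE 0.20) in Baf180 knockdown, which left 4.48%, 19.5% and 0.764% of the scramble CPM. Nefm, the medium chain, had 386 and 378 counts in Baf250A libraries, 728 and 612 in Brd9, 110 and 82 in Baf180, and 2678 and 2269 in scramble libraries. The groups were in the same order as for Nefl and did not overlap, with smaller differences: −2.85 (SE 0.18), −2.06 (SE 0.17) and −4.70 (SE 0.20) for Baf250A, Brd9 and Baf180 knockdown. As a result Nefl stood at 0.963 times the TPM of Nefm in Baf250A cells, 2.41 times in Brd9, 0.609 times in Baf180 and 2.97 times in scramble cells. These 2 genes lie next to each other on chromosome 14, Nefl at 68083863 to 68089095 on the plus strand and Nefm at 68119545 to 68125004 on the minus strand (GRCm38, RefSeq genes). GENCODE M21 gives them transcripts whose exons overlap on opposite strands. The strand setting of the counting is not given, so a part of their counts could be shared.

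The stathmins went separate ways. Stmn2, the neuronal stathmin also known as SCG10, had 381 and 381 counts in Baf250A libraries, 2208 and 2133 in Brd9, 1363 and 1754 in Baf180, and 2558 and 2302 in scramble libraries. Only the Baf250A libraries were far below the rest. Their log2 fold change was −2.83 (SE 0.15), against −0.34 (SE 0.13) in Brd9 and −0.66 (SE 0.14) in Baf180 knockdown, so that 14.0%, 79.1% and 63.1% of the scramble CPM remained. With GC and length offsets the order of the other 2 knockdowns turned, at −0.49 in Brd9 (then called) and −0.36 in Baf180. Without offsets the Brd9 difference was not called, and the Baf180 call ended without scramble replicate 1 or Baf180 replicate 1. Stmn4, a second neuronal stathmin, had 0 and 2 counts in Baf250A libraries, 261 and 213 in Brd9, 4 and 4 in Baf180, and 837 and 685 in scramble libraries. Baf250A and Baf180 cells had next to none left. The ratio of Baf250A to scramble was 0.00118, with a 95% counting interval of 0.000142 to 0.00425. The log2 fold change was −1.86 (SE 0.23) in Brd9 and −7.55 (SE 0.36) in Baf180 knockdown. Baf180 cells thus kept 63.1% of Stmn2 CPM and 0.520% of Stmn4 CPM, and Baf250A cells 14.0% and 0.119%, the last from 2 counts. Stmn2 is on chromosome 3 (8509527 to 8561604), and Stmn4 is on chromosome 14 (66344210 to 66361680), 1720 kb before Nefl.

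Gap43 and Crmp1, both of the growth cone, were low in every knockdown. Gap43 (chromosome 16, 42248552 to 42340651) had 21 and 30 counts in Baf250A libraries, 135 and 141 in Brd9, 7 and 12 in Baf180, and 716 and 584 in scramble libraries. Its groups did not overlap, with log2 fold changes of −4.82 (SE 0.27), −2.41 (SE 0.22) and −6.10 (SE 0.30) in Baf250A, Brd9 and Baf180 knockdown. Crmp1 (chromosome 5, 37242058 to 37292163), a mediator of semaphorin signals, had 2 and 0 counts in Baf250A libraries, 9 and 17 in Brd9, 3 and 2 in Baf180, and 178 and 153 in scramble libraries. It had the smallest share left of the 10 genes in Brd9 cells, 7.04% of the scramble CPM. The Baf250A to scramble ratio was 0.00540 (95% counting interval 0.000652 to 0.0197), and the log2 fold change was −3.83 (SE 0.40) in Brd9 and −6.00 (SE 0.51) in Baf180 knockdown. Crmp1 overlaps Evc, which lies on the opposite strand and shares no exon with it.

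The receptor genes differed from each other in Brd9 knockdown. Ngfr (chromosome 11, 95568818 to 95587698), the p75 neurotrophin receptor, had 9 and 12 counts in Baf250A libraries, 49 and 75 in Brd9, 8 and 9 in Baf180, and 543 and 507 in scramble libraries. Baf250A and Baf180 libraries overlapped, and Brd9 libraries lay between them and scramble. The log2 fold change was −5.79 (SE 0.32) in Baf250A, −3.25 (SE 0.26) in Brd9 and −5.95 (SE 0.33) in Baf180 knockdown. Lrrn1 (chromosome 6, 107529726 to 107570228), a leucine-rich repeat membrane protein of neurons, had 11 and 20 counts in Baf250A libraries, 538 and 327 in Brd9, 9 and 10 in Baf180, and 375 and 293 in scramble libraries. Here Brd9 libraries overlapped with scramble. Its log2 fold change was −4.57 (SE 0.34) in Baf250A and −5.14 (SE 0.37) in Baf180 knockdown, and 0.19 (SE 0.26) in Brd9 knockdown, where the value without Brd9 replicate 1 was −0.13.

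The polysialic acid pair split apart. St8sia2 (chromosome 7, 73939119 to 74013727), the enzyme that builds polysialic acid chains on NCAM, had 1 and 0 counts in Baf250A libraries, 260 and 235 in Brd9, 66 and 80 in Baf180, and 272 and 184 in scramble libraries. Brd9 libraries overlapped with scramble, Baf180 libraries lay below them, and Baf250A libraries were close to 0. The ratio of Baf250A to scramble was 0.00196 (95% counting interval 4.96e-05 to 0.0110), and the log2 fold change was −0.06 (SE 0.24) in Brd9 and −1.66 (SE 0.26) in Baf180 knockdown. Ncam1 (chromosome 9, 49502129 to 49799393) had 1982 and 2071 counts in Baf250A libraries, 4198 and 3801 in Brd9, 2861 and 2810 in Baf180, and 1928 and 1767 in scramble libraries. It was the member that was not lower than scramble beyond the spread of the libraries in any knockdown. Its log2 fold change was −0.03 (SE 0.12) in Baf250A, where libraries overlapped with scramble, 0.94 (SE 0.12) in Brd9 and 0.60 (SE 0.12) in Baf180 knockdown. The calls for Brd9 and Baf180 knockdown ended without scramble replicate 2, at log2 fold changes within 0.89 to 0.98 and 0.54 to 0.66 with any 1 library left out.

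**Figure D3:**
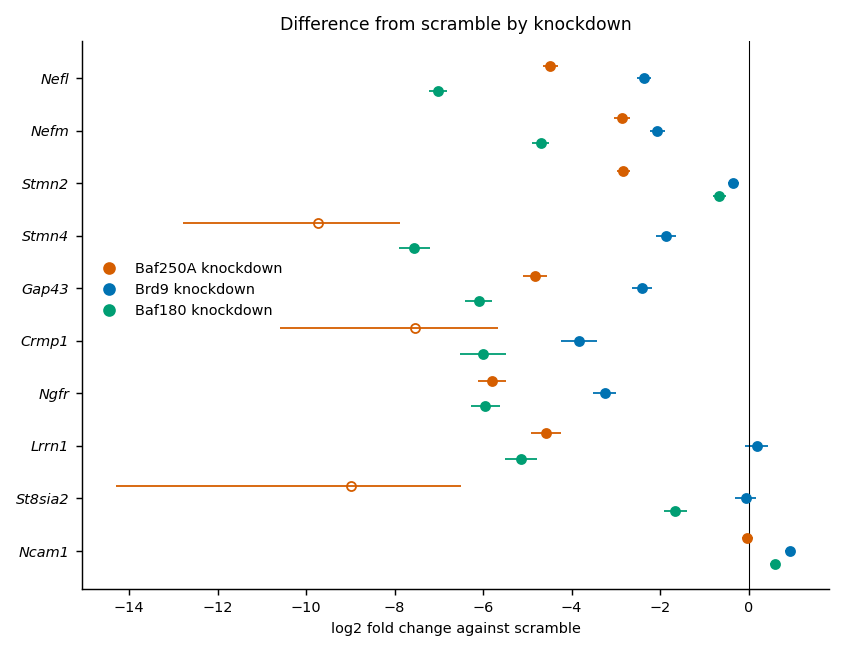
Points give the log2 fold change of each gene against scramble in Baf250A, Brd9 and Baf180 knockdown, with the SE as a bar. Open points are count ratios with a 95% counting interval, for genes with at most 3 counts in the Baf250A libraries. Brd9 knockdown lies nearest to 0 for 9 of the genes, all but Ncam1, which lies at −0.03 in Baf250A, 0.94 in Brd9 and 0.60 in Baf180 knockdown.

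Direct comparisons between knockdowns set the knockdown libraries against each other, within the same fit over all 8 libraries, and are again a description. Between Baf250A and Brd9 knockdown all 10 genes were called lower in Baf250A, beside 15.0% of all genes. The log2 fold change ran from −0.79 (SE 0.17) for Nefm and −0.96 (SE 0.12) for Ncam1 to −4.76 (SE 0.34) for Lrrn1 among genes with more than 3 counts in a group. The St8sia2 ratio was 0.00204 (95% counting interval 5.17e-05 to 0.0114). The calls for Nefm and Crmp1 ended without Baf250A replicate 2, the Nefm call also without Brd9 replicate 1 and the Crmp1 call also without Brd9 replicate 2.

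Between Brd9 and Baf180 knockdown no member was called lower in Brd9 (0 by edgeR, 0 at an unadjusted p below 0.05 and 0 by DESeq2), and 9 were called higher, beside 26.3% of all genes higher and 23.3% lower. The largest differences were those of Stmn4 (log2 fold change 5.69, SE 0.37), Lrrn1 (5.32, SE 0.37) and Nefl (4.66, SE 0.19). The smallest were those of Ncam1 (0.34, SE 0.12) and Stmn2 (0.32, SE 0.14), and Stmn2 was not called, except without Baf180 replicate 2 (0.46), with upper-quartile scaling (0.41) or with a filter at a mean of 5 CPM (0.36). With GC and length offsets it was −0.12. The Ncam1 call ended without any 1 of the 4 libraries and under 6 of the other settings. The Crmp1 call (2.17, SE 0.67) ended without Brd9 replicate 2 or either Baf180 library.

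Baf250A and Baf180 knockdown divided the genes. Called lower in Baf250A were 3 genes, beside 31.7% of all genes: St8sia2, with a ratio of 0.00621 (95% counting interval 0.000156 to 0.0351), Stmn2 (log2 fold change −2.17, SE 0.14) and Ncam1 (−0.63, SE 0.12). Called higher in Baf250A were another 3, beside 30.8% of all genes: Nefl (2.54, SE 0.19), Nefm (1.84, SE 0.19) and Gap43 (1.28, SE 0.36). The Gap43 call ended without Baf250A replicate 2 or Baf180 replicate 1. No call was made for Ngfr (0.16, SE 0.45, and 1.00, SE 0.44, with GC and length offsets), Lrrn1 (0.56, SE 0.47, and 0.16, SE 0.43, with offsets), Crmp1 (ratio 0.363, 95% counting interval 0.0345 to 2.21) or Stmn4 (ratio 0.227, interval 0.0234 to 1.14). Stmn4 was called without Baf250A replicate 2.

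RefSeq promoter windows (250 bases before to 50 after a start, GRCm38.p6) were found for 4 of the 10 genes, and they are shown because their genes part in Brd9 knockdown. Ngfr and Crmp1 kept 10.5% and 7.04% of their scramble CPM in Brd9 cells, while Lrrn1 and St8sia2 stood at 114% and 96.2%. The windows are chr11:95587649-95587948 on the minus strand for Ngfr, chr5:37241808-37242107 on the plus strand for Crmp1, chr6:107529476-107529775 on the plus strand for Lrrn1 and chr7:74013633-74013932 on the minus strand for St8sia2. Each is written 5′ to 3′ on the gene's strand, with GC boxes (GGGCGG on either strand, which may overlap each other) in capitals.
Ngfr: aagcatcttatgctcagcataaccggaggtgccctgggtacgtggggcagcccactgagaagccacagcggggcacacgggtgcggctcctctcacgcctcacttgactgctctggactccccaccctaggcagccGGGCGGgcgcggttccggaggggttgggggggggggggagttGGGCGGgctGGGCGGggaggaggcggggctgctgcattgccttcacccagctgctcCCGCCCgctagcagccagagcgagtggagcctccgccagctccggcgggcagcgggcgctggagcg
Crmp1: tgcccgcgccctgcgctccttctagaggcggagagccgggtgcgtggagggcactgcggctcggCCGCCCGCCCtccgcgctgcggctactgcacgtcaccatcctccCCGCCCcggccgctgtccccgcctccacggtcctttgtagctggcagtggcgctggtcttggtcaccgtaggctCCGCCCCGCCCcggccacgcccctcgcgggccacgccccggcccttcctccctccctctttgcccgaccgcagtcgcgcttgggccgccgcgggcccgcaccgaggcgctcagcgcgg
Lrrn1: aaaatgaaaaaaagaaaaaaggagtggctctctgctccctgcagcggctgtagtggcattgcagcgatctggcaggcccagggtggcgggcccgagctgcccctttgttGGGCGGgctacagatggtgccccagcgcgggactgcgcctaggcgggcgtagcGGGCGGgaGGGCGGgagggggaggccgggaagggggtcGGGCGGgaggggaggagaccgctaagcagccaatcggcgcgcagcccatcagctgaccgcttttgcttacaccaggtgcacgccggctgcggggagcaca
St8sia2: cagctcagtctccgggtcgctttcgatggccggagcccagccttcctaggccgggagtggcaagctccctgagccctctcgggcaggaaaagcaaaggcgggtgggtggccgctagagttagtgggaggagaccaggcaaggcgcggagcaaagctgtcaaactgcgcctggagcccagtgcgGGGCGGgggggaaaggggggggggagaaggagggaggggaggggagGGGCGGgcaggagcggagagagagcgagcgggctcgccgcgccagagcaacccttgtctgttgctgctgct

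All 4 windows shown held at least 2 GC boxes, where 35.7% of all 32851 windows of this length held at least 1. Crmp1 held 5, Ngfr 4, Lrrn1 4 and St8sia2 2. They also held many CpG dinucleotides, 23 in Ngfr, 41 in Crmp1, 24 in Lrrn1 and 20 in St8sia2, against a median of 7. Their GC content was 71.7%, 77.0%, 67.3% and 68.7% in the same order, against a median of 52.7%. E-boxes (CANNTG, the sequence that factors such as MyoD recognise) were present in Lrrn1 with 3 and Ngfr with 2, 1 of them CAGCTG in each gene. The Crmp1 and St8sia2 windows held 0, while 72.3% of all windows had an E-box and 16.3% had CAGCTG, which is itself an E-box. Neither TATAAA nor the AP-1 letters TGANTCA occurred in the 4 windows (13.6% and 7.81% of all). Crmp1 has another window, at a later start (chr5:37245514-37245813), which is not shown and held 2 GC boxes, 20 CpG and 1 E-box. The St8sia2 window is set on a start at 74013682, not at the end of the gene span, 74013727. In these 4 windows none of the motifs counted divided the genes that stayed at the scramble level in Brd9 cells from those that did not. GC content did, at 71.7% and 77.0% for Ngfr and Crmp1 against 67.3% and 68.7% for Lrrn1 and St8sia2. So few windows cannot show or exclude a difference in sequence.

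Close relatives of the 10 genes, listed by family, were tested in the same fit. Their lists too were drawn up with earlier results known, so their p-values are not independent support for a pattern. Of 5 tested genes of the NCAM and L1 family of adhesion molecules all 5 fell in Baf250A knockdown, with a median log2 fold change of −2.50 against −0.02 over all genes, while 14.0% of all genes were called lower. L1cam, an adhesion molecule of growing axons, had 41 and 29 counts in Baf250A libraries, 419 and 405 in Brd9, 18 and 27 in Baf180, and 467 and 375 in scramble libraries. It fell in Baf250A (log2 fold change −3.74, SE 0.25, adjusted p = 2.27e-05) and Baf180 knockdown (−4.24, SE 0.26, adjusted p = 2.32e-05) and was not called in Brd9 knockdown (−0.21, SE 0.20, adjusted p = 0.518). Cadm4 (−3.39, SE 0.25, adjusted p = 4.55e-05) and Cadm1 (−2.50, SE 0.18, adjusted p = 4.07e-05), nectin-like adhesion molecules, also fell in Baf250A knockdown. Cadm1 fell in Brd9 knockdown (−1.47, SE 0.17, adjusted p = 0.00116), and so did Alcam (−1.30, SE 0.16, adjusted p = 0.00142). The Alcam call in Baf250A knockdown (−0.57, SE 0.16, adjusted p = 0.0245) ended without any 1 of the 4 libraries (adjusted p up to 0.174). In Baf180 knockdown 4 of these 5 fell, beside 17.0% of all genes. The calls of Cadm1 and Cadm4 there ended without scramble replicate 2 among others. Mcam, an adhesion molecule of vessels and muscle precursors, rose in Baf180 knockdown (0.91, SE 0.13, adjusted p = 0.00132), where 17.2% of all genes were called higher.

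Other families were mixed. Stmn1, the stathmin of dividing cells, had 5060 and 4721 counts in Baf250A libraries, 6095 and 5452 in Brd9, 6489 and 6214 in Baf180, and 5316 and 5074 in scramble libraries. It was not called in any comparison with scramble (adjusted p from 0.102 to 0.901), and Stmn3 did not pass the filter. Dpysl2, a CRMP of broad expression, was not called either (log2 fold changes 0.11, 0.02 and 0.14 in Baf250A, Brd9 and Baf180 knockdown, adjusted p from 0.475 to 0.936). Dpysl3, another CRMP, fell in Baf250A knockdown (−0.98, SE 0.17, adjusted p = 0.00426). Basp1, a membrane protein related in function to Gap43, fell by 1.05 in Baf250A knockdown on the log2 scale (SE 0.12, adjusted p = 0.000436). Of 3 tested GAP43-like genes 2 fell there, the other being Marcksl1 (−0.62, SE 0.15, adjusted p = 0.0158). In Brd9 and in Baf180 knockdown 1 fell and 1 rose. The gene that rose in both was Marcks (1.03, SE 0.20, adjusted p = 0.014 in Brd9). All genes gave 14.0% lower in Baf250A, 3.57% lower and 6.45% higher in Brd9, and 17.0% and 17.2% in Baf180. Of the intermediate filaments, Vim, the vimentin of mesenchymal cells, fell in Baf250A knockdown (−0.85, SE 0.13, adjusted p = 0.00174), and so did Sync, a partner of desmin (−1.51, SE 0.21, adjusted p = 0.00147). In all, 4 of the 5 tested intermediate filament genes fell there, beside 14.0% of all genes. In Baf180 knockdown 1 of the 5 fell, Vim (−0.53, SE 0.12, adjusted p = 0.0126), and Sync (0.67, SE 0.20, adjusted p = 0.0306) and Des, desmin (0.81, SE 0.25, adjusted p = 0.0323), rose, beside 17.0% lower and 17.2% higher of all genes. Vim also fell in Brd9 knockdown (−0.51, SE 0.12, adjusted p = 0.0349). Each of these 4 calls ended without either scramble library (adjusted p up to 0.234). Prph, a filament of peripheral neurons, fell in Baf250A knockdown (−2.30, SE 0.43, adjusted p = 0.00560), a call that ended without Baf250A replicate 2 (adjusted p = 0.0648). Lrrn3, a relative of Lrrn1, fell in Baf180 knockdown (−1.72, SE 0.46, adjusted p = 0.0208), a call that ended without scramble replicate 1 or Baf180 replicate 1 (adjusted p up to 0.131). None of the 5 other ST8SIA genes passed the filter, and their counts reached at most 4 in a library.

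Of the other neurotrophin genes, the receptor genes Ntrk2 and Ntrk3 had at most 6 and 4 counts in a library. Bdnf, a ligand, rose in Baf250A knockdown (log2 fold change 2.16, SE 0.21, adjusted p = 0.000172), with 817 and 1032 counts in Baf250A libraries and 186 and 185 in scramble libraries. Sort1, a co-receptor of p75, fell in Baf250A knockdown (−0.96, SE 0.20, adjusted p = 0.00924), a call that ended without scramble replicate 1 or Baf250A replicate 2 (adjusted p up to 0.0849). Lingo1, another p75 partner, rose there (3.47, SE 0.65, adjusted p = 0.00574). Of 11 tested genes of this list 4 fell and 2 rose in Baf250A knockdown, beside 14.0% lower and 15.5% higher of all genes. In Brd9 knockdown 1 fell and 0 rose, beside 3.57% and 6.45%. In Baf180 knockdown 2 fell and 3 rose, beside 17.0% and 17.2%.

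**Figure D4:**
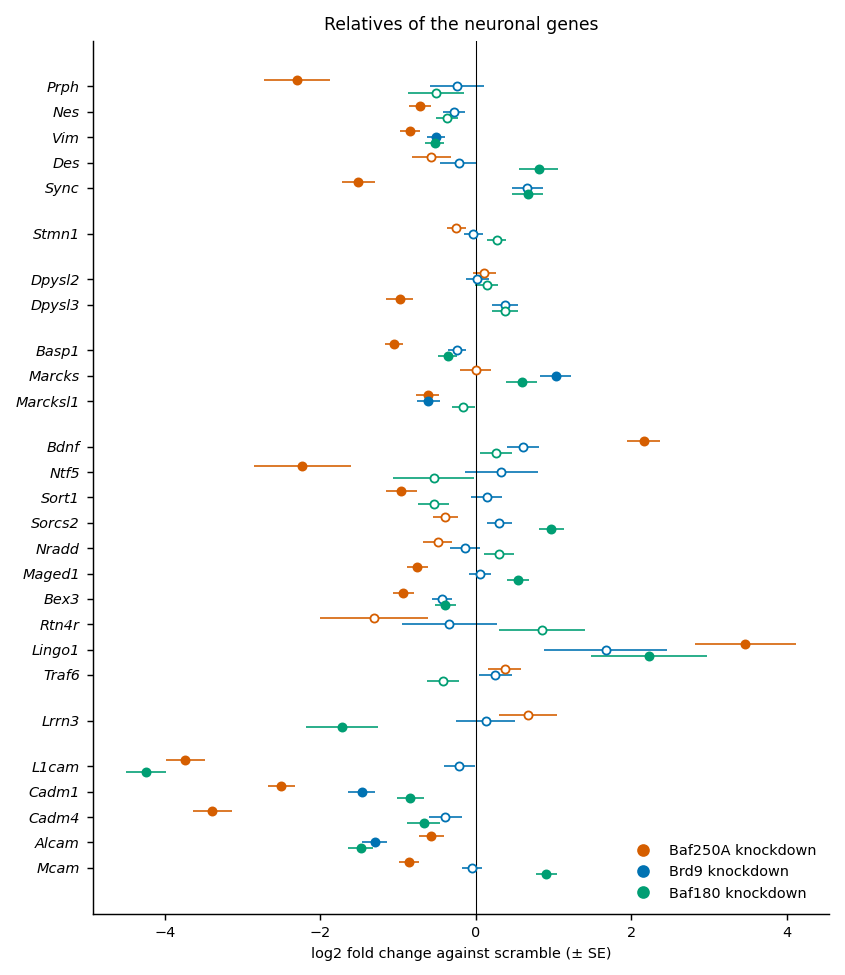
Points give the log2 fold change against scramble, with its SE, of tested relatives of the neuronal genes, grouped by family with a gap between families. Filled points were called at an adjusted p below 0.05. L1cam lies at −3.74 in Baf250A and −4.24 in Baf180 knockdown, and Stmn1 lies near 0 in all 3.

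In all, 159 related neuronal genes were listed and 87 passed the filter. In Baf250A knockdown 36 of the 87 fell and 9 rose, with a median log2 fold change of −0.54, where 14.0% of all genes were lower and 15.5% higher. In Brd9 knockdown 6 fell and 4 rose, with a median of 0.00, beside 3.57% and 6.45% of all genes. In Baf180 knockdown 18 fell and 19 rose, with a median of 0.03, beside 17.0% and 17.2% of all genes, a share near the background. Leaving out 1 library moved these counts of calls by more than 1.5 times: to 3 in Brd9 knockdown without either scramble library or Brd9 replicate 1, to 25 in Baf250A knockdown without scramble replicate 1 or Baf250A replicate 2, and in Baf180 knockdown to 15 without either scramble library and 18 without Baf180 replicate 1.

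Rest itself had 205 and 325 counts in Baf250A libraries, 406 and 271 in Brd9, 106 and 148 in Baf180, and 216 and 156 in scramble libraries. It was not called in any knockdown against scramble, at log2 fold changes of 0.36 (SE 0.29, adjusted p = 0.359), 0.68 (SE 0.29, adjusted p = 0.150) and −0.57 (SE 0.30, adjusted p = 0.159) in Baf250A, Brd9 and Baf180 knockdown. Between knockdowns Rest was called higher in Brd9 (1.25, SE 0.29, adjusted p = 0.0102) and Baf250A (0.93, SE 0.30, adjusted p = 0.0214) than in Baf180. Of 19 genes of the REST corepressor machinery, 2 fell and 2 rose in Baf250A knockdown, beside 14.0% lower and 15.5% higher of all genes. In Baf180 knockdown 3 fell and 2 rose, beside 17.0% and 17.2%. No gene was called in Brd9 knockdown (0 by edgeR), where few of all genes were called, 3.57% lower and 6.45% higher. At an unadjusted p below 0.05, 4 of the 19 differed in Brd9 knockdown, and DESeq2 called 0. Rcor2, a corepressor of the CoREST family, fell in Baf250A knockdown (−1.15, SE 0.18, adjusted p = 0.00280).

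Markers of the myoblast state moved beside the neuronal genes, and their part in the differences was not tested. The 8 myoblast markers summed to 824 to 1020 CPM in Baf250A libraries, 1480 to 1840 in Brd9, 2270 to 3200 in Baf180, and 1700 to 1720 in scramble libraries. The sum was thus lower than scramble in Baf250A cells and higher in Baf180 cells, while 9 of the 10 neuronal genes were lower in both. The 9 neuron markers summed to 26.3 to 33.2 CPM in Baf250A libraries, 153 to 188 in Brd9, 150 to 231 in Baf180, and 188 to 192 in scramble libraries. Without Tubb3 and Syn1 they summed to at most 3.78 CPM in any library. Genes of the muscle side of the synapse were included in a list of 16 myoblast genes, of which 15 were tested. Of these 7 fell and 0 rose in Baf250A knockdown, 1 fell and 5 rose in Brd9, and 3 fell and 6 rose in Baf180 knockdown, where all genes gave 14.0% lower and 15.5% higher in Baf250A, 3.57% and 6.45% in Brd9, and 17.0% and 17.2% in Baf180 knockdown. Chrna1, the acetylcholine receptor alpha subunit, fell in Baf250A knockdown (log2 fold change −4.24, SE 0.15, adjusted p = 1.37e-06). It was not called in Brd9 (0.06, adjusted p = 0.774) or Baf180 knockdown (−0.05, adjusted p = 0.757). Dok7, an adaptor of the synapse kinase MuSK, fell in Baf250A (−4.92, SE 0.35, adjusted p = 4.07e-05), Brd9 (−2.78, SE 0.29, adjusted p = 0.000669) and Baf180 knockdown (−3.87, SE 0.32, adjusted p = 0.000109).

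Genes whose level followed the mean of the 10 most closely over the 8 libraries were found by Pearson's r of log2 CPM, among the 9637 named genes whose mean reached 5 CPM. The points share 4 groups and the same libraries, and r is given as a description. Osbp2, an oxysterol-binding protein, came highest (r = 0.993), at 4.81 ± 0.52 CPM in Baf250A, 59.3 ± 2.8 in Brd9, 7.69 ± 0.61 in Baf180 and 123 ± 3.5 in scramble libraries (SD, n = 2 each). Chrnd, the delta subunit of the muscle acetylcholine receptor, followed (r = 0.990), at 1.48 ± 0.12, 14.4 ± 0.89, 2.63 ± 0.63 and 29.6 ± 0.76 CPM in the same order. The next 6 were Rmc1, Fam216a, Antxr2, Khdrbs3, Adgrg1 and Cachd1, with r from 0.977 to 0.983 and smaller differences. Of these Adgrg1, an adhesion G protein-coupled receptor, differed most, at 12.2 ± 0.95 CPM in Baf250A, 30.5 ± 4.7 in Brd9, 15.8 ± 2.6 in Baf180 and 64.1 ± 4.3 in scramble libraries. Within the 10, each gene's r with the mean of the other 9 was 0.99 for Stmn4, 0.96 for Ngfr and 0.95 for Gap43, and lowest for Stmn2 (0.73), St8sia2 (0.70) and Ncam1 (0.00).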

How the data were processed

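RNA was sequenced from 8 C2C12 libraries, 2 in each of 4 groups taken from the sample titles. The authors deposited 1 table that holds, per the file headers, an expected count for each gene in each library, not normalized, beside a gene length. Tools listed in the submitters' processing notes, without versions or roles, are RSEM, Bowtie2, HISAT2, StringTie, Cufflinks and DESeq2, with the build mm10. Read filters and the use of strand are not given there. The counts were rounded to whole numbers and fitted over all 8 libraries with edgeR 4.0.16 (R 4.3.3): filterByExpr, TMM scaling, quasi-likelihood test and Benjamini-Hochberg adjustment over 12420 genes, called at an adjusted p below 0.05. SE is the log2 fold change over the root of F. CPM uses the TMM-scaled library and TPM the deposited lengths. Groups with at most 3 counts are given as a count ratio with an exact 95% interval, which covers counting error only. Alternatives were RLE and upper-quartile scaling, other filters, DESeq2 1.42.0, the 4 libraries of a comparison alone, a replicate block, GC and length offsets, and leaving out each library.

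The members and gene lists were chosen with earlier results of these data known. Named were all 10 genes, the 3 targets, tested relatives by family, the up to 4 genes of lowest p of each other list, Rest, and the 8 genes of highest likeness. Some relatives are not reported here. The fit was also run on simulated data, and the outcome is not reported here.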

Additional observations from a re-analysis of the deposited data

How the results depend on the processing

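Related neuronal genes called in Brd9 knockdown numbered 10, and 19 with no filter, 19 with the 4 libraries alone and 20 with GC and length offsets. Leaving out 1 library gave 3 to 7 in Brd9, 25 to 43 in Baf250A and 15 to 37 in Baf180 knockdown. Of the 10 genes, leaving out 1 library kept 8 to 9 called lower in Baf180 knockdown against scramble, 8 to 10 in Baf250A against Brd9 and 3 to 4 in Baf250A against Baf180.

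Signs turned only for small differences. Stmn2 in Brd9 against Baf180 was −0.12 with offsets. Lrrn1 in Brd9 against scramble was −0.01 with offsets. Leaving out 1 library at a time, the log2 fold change ran from −0.13 to 0.48 for Lrrn1 and from −0.30 to 0.23 for St8sia2 in Brd9 against scramble, from −0.04 to 0.42 for Ngfr in Baf250A against Baf180, and from −0.07 to 0.09 for Ncam1 in Baf250A against scramble, where it was 0.02 without scramble replicate 1. The cause was not tested.

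Replicate numbers are shared between groups, and no label says that they pair libraries. Deviations from the group means correlated from −0.481 to 0.456, not above 0.1 in every pair, so libraries were not treated as paired, which 2 libraries a group cannot settle. With a replicate block the counts of members called lower were 6 in Brd9, 9 in Baf250A and 9 in Baf180 against scramble. The shares of all genes lower were then 1.62%, 11.2% and 14.0%. In the same setting 7, 41 and 28 related genes were called, beside 721, 3020 and 3486 of all 12420 genes.

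Over all genes, calls in Brd9 against scramble numbered 1244, and 2588 with no filter, 2540 with the 4 libraries alone, 721 with the block, 3751 with offsets (2280 lower, against 443 of 1244) and 231 to 1020 without 1 library (1020 without Brd9 replicate 2). DESeq2 called 1787, 845 of them lower. Offsets gave 5505 calls (2334 lower) against 3108 (1862 lower) in Baf250A against Brd9, and 4079 (2333 lower) against 6158 (2888 lower) in Brd9 against Baf180. Leaving out 1 library gave 1171 to 3721 against 3669 in Baf250A and 1560 to 4514 against 4253 in Baf180 against scramble, 1381 to 2572 in Baf250A against Brd9, and 1150 to 6605 in Brd9 against Baf180. Upper-quartile scaling put the median of all genes at 0.11 in Brd9 against Baf180, against 0.02. With 2 libraries a group and under 5 counts in several groups, small differences among the lowest genes were not detectable at this depth.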

Other observations

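Of 18 tested genes of neuronal microtubules and transport 10 fell and 3 rose in Baf250A knockdown, beside 14.0% lower and 15.5% higher of all genes. The same list had 0 lower and 2 higher in Brd9 knockdown, beside 3.57% and 6.45% of all genes. It had 2 lower and 6 higher in Baf180 knockdown (median log2 fold change 0.35), beside 17.0% and 17.2% of all genes. Tubb3, the neuronal beta tubulin, had 243 and 220 counts in Baf250A libraries, 2523 and 2840 in Brd9, 2205 and 1589 in Baf180, and 2615 and 2474 in scramble libraries. It fell in Baf250A knockdown (log2 fold change −3.62, SE 0.21, adjusted p = 1.40e-05) and was not called in the other 2 (adjusted p = 0.753 in Brd9 and 0.0979 in Baf180). Tubb2b, another tubulin (−1.60, SE 0.13, adjusted p = 8.29e-05), and Kif3c, a kinesin motor (−1.30, SE 0.13, adjusted p = 0.000194), fell in Baf250A knockdown too. Fez1, a kinesin adaptor of axon growth, rose (4.87, SE 0.48, adjusted p = 0.000190), with 114 and 121 counts in Baf250A libraries and 6 and 1 in scramble libraries. Of 14 tested genes of neurons and synaptic vesicles 6 fell and 1 rose in Baf250A knockdown, beside the same 14.0% and 15.5%. In Brd9 knockdown 1 fell and 1 rose, beside 3.57% and 6.45% of all genes. In Baf180 knockdown 4 fell and 4 rose (median −0.02), beside 17.0% and 17.2% of all genes. Uchl1, a ubiquitin hydrolase abundant in neurons, had 65 and 48 counts in Baf250A libraries, 160 and 149 in Brd9, 74 and 49 in Baf180, and 317 and 273 in scramble libraries. It fell in Baf250A (−2.54, SE 0.26, adjusted p = 0.000246) and Baf180 knockdown (−2.27, SE 0.26, adjusted p = 0.000511), and in Brd9 knockdown (−1.11, SE 0.24, adjusted p = 0.0227) with a call that ended without any 1 of the 4 libraries (adjusted p up to 0.146). Nsg1, an endosomal protein of neurons, rose in each knockdown, by 1.56 (SE 0.12, adjusted p = 6.15e-05) in Baf250A, 1.59 (SE 0.12, adjusted p = 0.000183) in Brd9 and 1.18 (SE 0.12, adjusted p = 0.000280) in Baf180 on the log2 scale. Of 29 neurogenic transcription factors 8 passed the filter. Among them 2 fell and 1 rose in Baf250A knockdown, beside 14.0% lower and 15.5% higher of all genes. These were Sox11 (−0.68, SE 0.21, adjusted p = 0.0377), Gata3 (−0.71, SE 0.19, adjusted p = 0.0211) and Ebf1 (1.14, SE 0.22, adjusted p = 0.00657). All 3 calls ended without scramble replicate 1 (adjusted p up to 0.204), and those of Sox11 and Gata3 without any 1 of the 4 libraries.

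Genes next to the 10 neuronal genes in the genome were counted as well. Of 39 tested genes within 500 kb of a member, 12 fell and 4 rose in Baf250A knockdown, 1 fell and 2 rose in Brd9, and 5 fell and 6 rose in Baf180 knockdown. The shares lower were 30.8%, 2.56% and 12.8%, beside 14.0%, 3.57% and 17.0% of all genes. The neighbours were spread unevenly, with the most around Ngfr and none around Gap43. Of those that fell in Baf250A knockdown, Nxph3, Dlx3, Itga3, Kat7, Phospho1 and Abi3 lie near Ngfr, where Spop rose. Around Nefl and Nefm the tested genes were Dock5, Kctd9 and Cdca2, and none of them fell in any knockdown (these and the other neighbours named were chosen after their values were seen). Kctd9 rose in Baf250A knockdown (log2 fold change 0.89, adjusted p = 0.0134). Near Stmn4, Ptk2b, a focal adhesion kinase 63110 bases away, fell in Baf250A (−1.54, adjusted p = 0.000321) and Baf180 knockdown (−0.83, adjusted p = 0.00623), while Trim35, 32786 bases away, was not called in either (adjusted p = 0.117 and 0.375). Ttc12, 15854 bases from Ncam1, fell in Baf250A knockdown (−1.52, adjusted p = 0.00137).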
